A study of Canis lupus familiaris with 12 samples.

Results

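miR-203 and miR-205 are miRNAs of stratified and basal epithelium, and their rows were taken by exact name from the 453 canine miRNAs counted in this study. Both names, cfa-miR-203 and cfa-miR-205, were present, so the results below describe 2 of 453 miRNAs. The study compared CHMm, a canine mammary gland tumor (CMGT) line from the pleural effusion of a dog with metastatic disease, with its tamoxifen (TAM)-resistant derivative CHMmTAM. Resistance was selected by a rising concentration of TAM over 10 months until the cells proliferated at 10 μM. The cells were then kept at 10 μM for 1 month and without drug for 1 week. Both lines were grown in phenol-red-free DMEM with steroid-depleted serum, and small RNA was sequenced in 3 libraries per line. The paper also lists hydroxytamoxifen in the medium, without saying for which line.

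A miRNA guides an Argonaute protein to mRNAs that pair with its seed, near the 5′ end, and lowers the output of those mRNAs. As keratinocytes leave the basal layer, miR-203 is induced and represses p63, the transcription factor that maintains basal progenitors. miR-205 is abundant in basal and myoepithelial cells of the mammary gland, and together with the miR-200 family it represses ZEB1 and ZEB2, the repressors of E-cadherin that drive epithelial-mesenchymal transition. In the RefSeq genes of the dog assembly UU_Cfam_GSD_1.0 each of the members has a single locus. MIR203 lies within the span of ASPG, a gene for an asparaginase, and KIF26A is the next gene after it. MIR205 lies within no other gene, between the lncRNA genes LOC119872658 and LOC119872493.

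The libraries held 7512659 to 11450062 counts in CHMm and 8137736 to 12482211 in CHMmTAM. miR-21 alone took between 50.2% and 54.5% of each. All 5 members of the miR-200 family, which mark epithelial cells, were detected in every library, with a summed level of 16477 to 18465 CPM (reads per 1e+06 counts of the library) in CHMm and 16573 to 17998 in CHMmTAM. The 5 muscle miRNAs summed to between 9.00 and 10.5 CPM in CHMm and between 42.3 and 45.0 CPM in CHMmTAM, the 5 blood miRNAs to between 4.99 and 5.99 CPM against 11.9 to 14.8 CPM, and the 5 mesenchymal miRNAs to between 228 and 260 CPM against 543 to 597 CPM. Of the miRNAs of these lists that were tested, 4 of 4 muscle, 2 of 4 blood and 1 of 5 mesenchymal miRNAs passed an FDR of 0.05 as higher in CHMmTAM, against 25.4% of all miRNAs tested, and 1 mesenchymal miRNA passed it as lower, against 18.7%. In the blood list the calls were miR-486 and miR-142, the latter lost under upper-quartile scaling. The mesenchymal sum was carried by miR-10b, which was not among the mesenchymal markers named in the design of the comparison. In CPM scaled by edgeR's TMM factors, miR-10b rose from 203 ± 7.56 to 549 ± 38.7 (SD, n = 3). On that scale miR-199 fell from 37.8 ± 2.58 to 21.2 ± 2.53. miR-143 was at 2.17 in CHMm and 3.14 in CHMmTAM, miR-145 at 0.255 and 0.261, and miR-214 at 2.47 and 1.69. These 3 were not called in the TMM fit of the 6 libraries, so the higher sum describes miR-10b and not the list. Without miR-10b, the list held no miRNA called higher in that fit. Its most abundant remaining member, miR-199, was called lower. The part of the muscle, blood and mesenchymal miRNAs in the results below was not tested. Of them, miR-206 and miR-150 had at most 3 and 2 counts in any library, and miR-145, a smooth muscle miRNA, had between 0 and 5. CHMmTAM is 1 derived line, so resistance and the months of separate culture cannot be told apart, and no source used here says that the 3 libraries of a line came from separate cultures. P-values therefore measure the spread between libraries, which may be technical.

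Both members were lower in CHMmTAM than in CHMm, miR-205 by 36.6% and miR-203 by 15.6%. Both differences were larger than the spread between replicates, that of miR-205 by a wide margin. In read counts, miR-205 had 44036, 71130 and 52319 in replicates 1, 2 and 3 of CHMm. It had 48949, 42423 and 29676 in those of CHMmTAM. These raw counts overlap, because the libraries differ in depth. Scaled by edgeR's TMM factors to CPM, miR-205 was at 6021, 6124 and 5848 in CHMm and at 3832, 3846 and 3728 in CHMmTAM. The lowest CHMm library was then 1.52-fold above the highest of CHMmTAM, with no overlap.

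Mean miR-205 was 5998 ± 139 CPM in CHMm, against 3802 ± 64.2 CPM in CHMmTAM (SD, n = 3 each). Its log2 fold change, CHMmTAM against CHMm, was -0.66 (standard error 0.06, 95% interval -0.78 to -0.53), with FDR = 3.64e-22 in edgeR's quasi-likelihood test, adjusted by Benjamini-Hochberg over all 284 miRNAs tested. miR-205 also represses ERBB3, a receptor of the EGFR family, but no mRNA was measured in these libraries.

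For miR-203, the counts were 15916, 24907 and 19684 in the CHMm libraries and 22706, 21526 and 14146 in those of CHMmTAM. On the TMM-scaled CPM scale they were 2176, 2144 and 2200 in CHMm and 1778, 1952 and 1777 in CHMmTAM. Here too the lines did not overlap, but the gap between the nearest libraries, CHMm replicate 2 and CHMmTAM replicate 2, was only 1.10-fold. CHMmTAM replicate 2 stood above the other two libraries of its line, which differed from each other by less than 1 CPM.

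Mean miR-203 was 2174 ± 28.0 CPM in CHMm, against 1835 ± 101 CPM in CHMmTAM (SD, n = 3 each). The log2 fold change was -0.24 (standard error 0.07, 95% interval -0.37 to -0.11), with FDR = 0.000784 from the same edgeR fit. Its coefficient of variation was 1.29% in CHMm and 5.48% in CHMmTAM, whereas that of miR-205 was 2.32% and 1.69%.

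**Figure D1:**
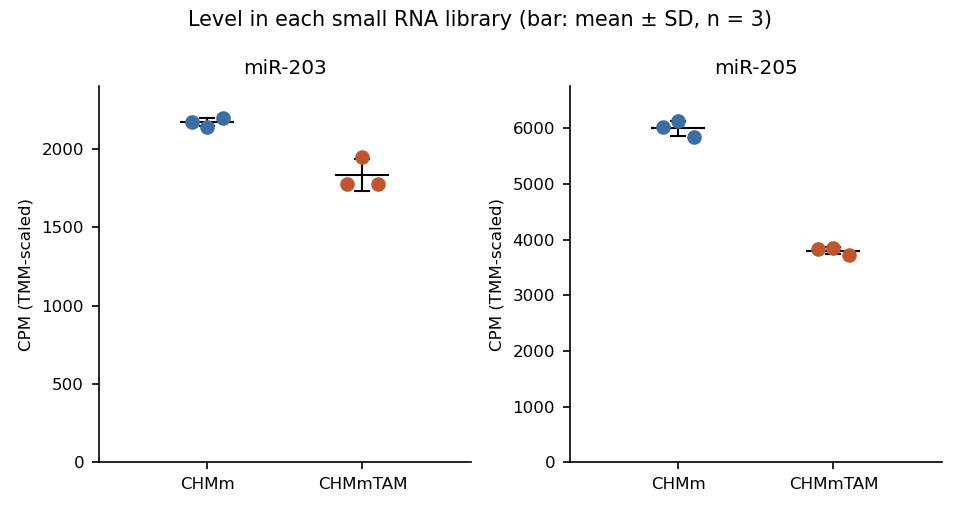
Level of miR-203 (left) and miR-205 (right) in each small RNA library, in TMM-scaled CPM on axes that start at 0. Points are the 3 libraries of CHMm and of CHMmTAM and bars the mean ± SD. For miR-205 the CHMmTAM libraries lie between 3728 and 3846 CPM, far below the CHMm libraries at 5848 to 6124 CPM, and for miR-203 the highest CHMmTAM library at 1952 CPM lies just under the lowest of CHMm at 2144 CPM.

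Both members passed an FDR of 0.05 and were lower in CHMmTAM. Of the 284 miRNAs tested, 44.0% passed that FDR in either direction, 18.7% as lower and 25.4% as higher in CHMmTAM, so passing it is common in this comparison. Lines that did not overlap, with CHMmTAM lower, were found for 22.9% of all miRNAs. Neither member reached the fold-change limit of the study, a log2 fold change above 1 or below -1 at that FDR, which 11.3% of the tested miRNAs passed. Ordered from the most negative log2 fold change, miR-205 ranked 35 and miR-203 ranked 75 of the 284. Over all tested miRNAs the median was 0.06.

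**Figure D2:**
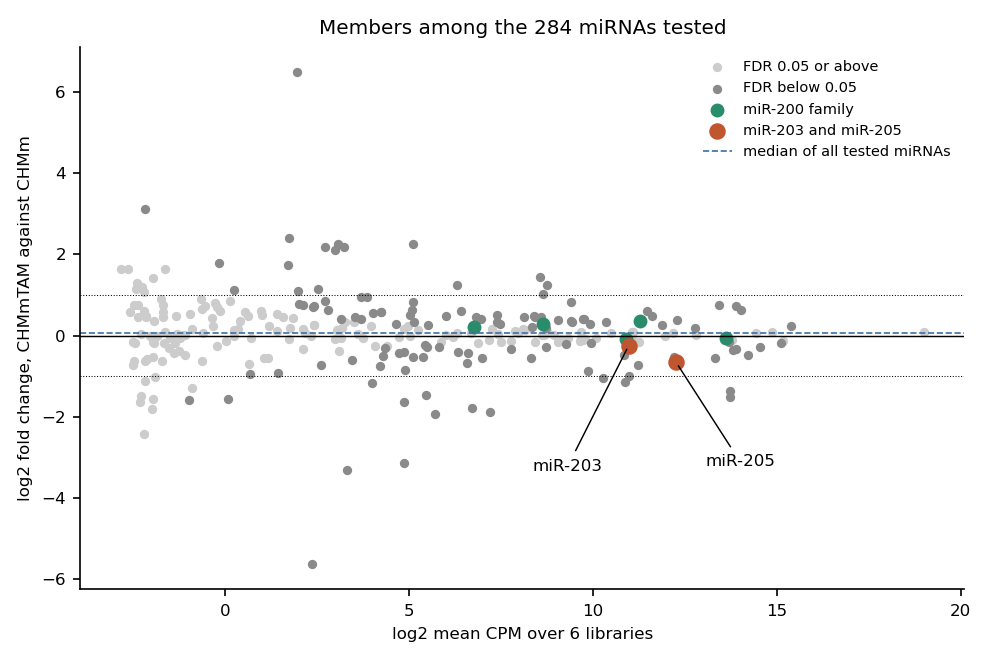
Log2 fold change of each of the 284 miRNAs tested, CHMmTAM against CHMm, against log2 of its mean TMM-scaled CPM over the 6 libraries. Dark grey points passed an FDR of 0.05, green points are the miR-200 family, the dashed line is the median of all miRNAs at 0.06 and dotted lines mark 1 and -1. miR-205 at -0.66 and miR-203 at -0.24 lie among the abundant miRNAs, below the median and inside the dotted lines.

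As shares of a library, both members were abundant in either line. The share of miR-205 was 0.600% ± 0.018 in CHMm against 0.380% ± 0.014 in CHMmTAM (SD, n = 3 each). That of miR-203 was 0.218% ± 0.0057 against 0.183% ± 0.010. The 95% Wilson intervals of the shares were narrow, for example 0.581% to 0.592% for miR-205 in CHMm replicate 1, but they cover counting error only. Between the CHMm libraries the miR-205 share ranged from 0.586% to 0.621%, wider than that counting error. Together the members took 0.818% ± 0.020 of the counts in CHMm and 0.563% ± 0.022 in CHMmTAM. With miR-21 left out of the totals, miR-205 took from 1.21% to 1.25% of the remaining counts in CHMm and from 0.801% to 0.847% in CHMmTAM. On that basis miR-203 took from 0.437% to 0.455% in CHMm and from 0.382% to 0.422% in CHMmTAM.

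In the order of reads by mean CPM, miR-205 stood at rank 23 in CHMm and rank 28 in CHMmTAM. miR-203 hardly moved in this order, from rank 37 to rank 38. CPM here counts reads assigned to a miRNA name and is not divided by length. Reads of different miRNAs can be captured with unequal efficiency, so the ranks order reads and not molecules. In CHMm the nearest miRNAs above miR-205 were miR-92a and miR-191, at 7117 ± 370 and 6587 ± 240 CPM (SD, n = 3), and neither overlapped it. The next below was miR-26b, which overlapped it at 5600 ± 403 CPM. miR-181d, the one after, was at 4501 ± 171 CPM and did not overlap. miR-203 lay between miR-103 at 2267 ± 29.0 and miR-429 at 2187 ± 131 CPM above, and miR-25 at 2125 ± 86.9 and miR-708 at 2123 ± 135 CPM below. Of these neighbours, miR-429, miR-25 and miR-708 could not be separated from miR-203 in CHMm by the range of their libraries, whereas miR-103 lay above it. In CHMmTAM none of the 4 overlapped miR-203, and miR-26b still overlapped miR-205.

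A ratio of counts within a library needs no scaling between libraries. CHMm replicates 1, 2 and 3 held 2.77, 2.86 and 2.66 miR-205 counts for each count of miR-203. CHMmTAM replicates 1, 2 and 3 held 2.16, 1.97 and 2.10. All CHMm libraries were above all CHMmTAM libraries. The difference of the mean log2 ratios, CHMmTAM minus CHMm, was -0.41, from 1.46 ± 0.05 (SD, n = 3) to 1.05 ± 0.07. The exact two-sided permutation test gave p = 0.1, which is the smallest p that 3 against 3 libraries allow, so this design cannot pass 0.05 for a single ratio.

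The miR-200 family shares ZEB1 and ZEB2 with miR-205 as targets, and none of its members was called lower under TMM scaling. miR-429 rose from 2187 ± 131 to 2811 ± 38.1 CPM (SD, n = 3), a log2 fold change of 0.36 with FDR = 2.18e-07 (edgeR quasi-likelihood). miR-200a rose from 359 ± 29.5 to 435 ± 43.3 CPM, at 0.27, and miR-200b from 101 ± 8.65 to 118 ± 9.38 CPM, at 0.21 with FDR = 0.0249 in the same edgeR fit. The lines overlapped for miR-200b, and under upper-quartile scaling its value turned to -0.032, while miR-200a at 0.029 and miR-429 at 0.12 were no longer called. miR-200b was also not called with RLE, DESeq2, library totals only or TMM without the 10 most abundant miRNAs, at 0.15 to 0.21. Without CHMm replicate 1 neither miR-200b (0.15) nor miR-200a (0.21) was called, and without CHMmTAM replicate 2 neither was called, at 0.17 and 0.19. miR-200c, the most abundant of the family at 12807 ± 504 CPM in CHMm, was at a log2 fold change of -0.06 and miR-141 at -0.09, and neither passed an FDR of 0.05. Under upper-quartile scaling both passed it as lower, at -0.30 and -0.34, miR-141 also passed as lower with RLE at -0.16, and without miR-21 in the totals miR-200c was at 0.031. In total, with TMM, 3 of the 5 family members were higher, 0 lower and 2 not called. Over all miRNAs tested, 25.4% were called higher and 18.7% lower. The median log2 fold change of the family was 0.21 against 0.06 over all miRNAs.

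Set against the summed counts of the 5 family members in the same library, miR-205 stood at 0.356, 0.336 and 0.341 in CHMm replicates 1, 2 and 3. In CHMmTAM it stood at 0.218, 0.214 and 0.220. The mean log2 ratio differed by -0.66 between the lines, and the lines did not overlap (exact two-sided permutation p = 0.1, the smallest possible here). miR-203 stood at 0.129, 0.118 and 0.128 of the family in CHMm and at 0.101, 0.109 and 0.105 in CHMmTAM. This is a difference of -0.25 in the mean log2 ratio, again without overlap and with p = 0.1 in the exact permutation test. These ratios and the one between the members form a family of 3, and each p stayed at 0.1 after Benjamini-Hochberg adjustment of the exact tests. The summed miR-200 family was mostly miR-200c, at a mean of 12807 TMM-scaled CPM in CHMm against 2187 for miR-429 and 359 for miR-200a. Ratios to that sum therefore follow miR-200c more than the family members that rose.

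**Figure D3:**
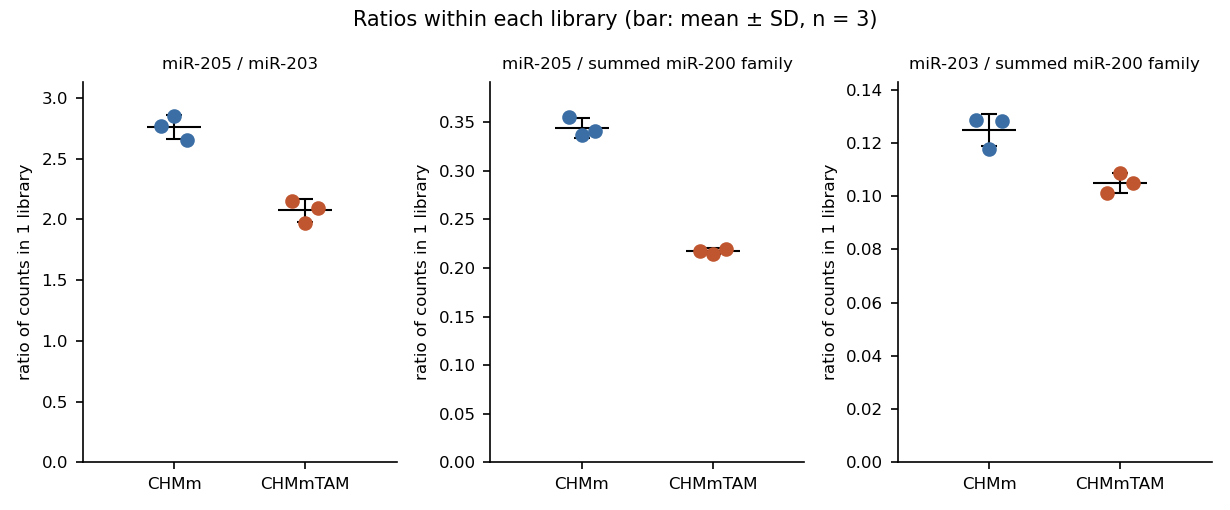
Ratios of raw counts within each library for miR-205 to miR-203, miR-205 to the summed miR-200 family and miR-203 to that sum, on axes that start at 0. Points are the 3 libraries of each line and bars the mean ± SD. In every panel all CHMm libraries lie above all CHMmTAM libraries, and the widest separation is for miR-205 to the miR-200 family, 0.336 to 0.356 against 0.214 to 0.220.

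Other miRNAs studied in keratinocytes or basal-like breast cancer moved in both directions. Of the 8 tested, with TMM, 3 were lower, 2 higher and 3 not called, against 18.7% lower and 25.4% higher of all miRNAs tested. Their median log2 fold change was -0.13. miR-221 and miR-222, which are high in basal-like breast cancer and repress the oestrogen receptor, were lower with log2 fold changes of -1.52 and -1.36. miR-184, an epithelial miRNA of cornea and skin that counteracts miR-205 on the phosphatase SHIP2, was lower at -3.13, from 52.7 ± 1.87 to 5.92 ± 1.04 CPM (SD, n = 3). miR-34a and miR-34c, which p63 represses in keratinocytes, were higher at 0.46 and 2.26. They were the only 2 of the list called higher. The tally and median thus pool miRNAs that p63 represses with miRNAs that are high in basal-like breast cancer. miR-24 and miR-125b, abundant in both lines, were not called at 0.09 and -0.12 with TMM. miR-125b was called lower with RLE, DESeq2 and TMM without the 10 most abundant miRNAs, each at -0.18, and under upper-quartile scaling at -0.36. miR-24 was called higher at 0.19 without miR-21 in the totals and at 0.17 without CHMmTAM replicate 3, but stood at -0.15 under upper-quartile scaling. miR-31, a keratinocyte miRNA, had only 6 to 13 counts in any library.

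Of 5 miRNAs linked to luminal or oestrogen receptor-positive breast cells, 2 were lower, 2 higher and 1 not called with TMM. Of all miRNAs tested, 18.7% were called lower and 25.4% higher. miR-375 was lower at -1.79 and miR-148a at -0.47 in log2 fold change, while miR-30a was higher at 0.39 and miR-342 at 0.83. miR-193a was at -0.12 and not called. It was called lower with RLE, DESeq2 and TMM without the 10 most abundant miRNAs, each at -0.18, and under upper-quartile scaling at -0.37, where miR-30a lost its call at 0.15. The fall of miR-205 was thus larger in log2 than that of miR-148a and smaller than those of miR-375, miR-221, miR-222 and miR-184, a comparison of point values that was not tested. The lists were chosen with earlier results of these data known, and their counts are a description.

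**Figure D4:**
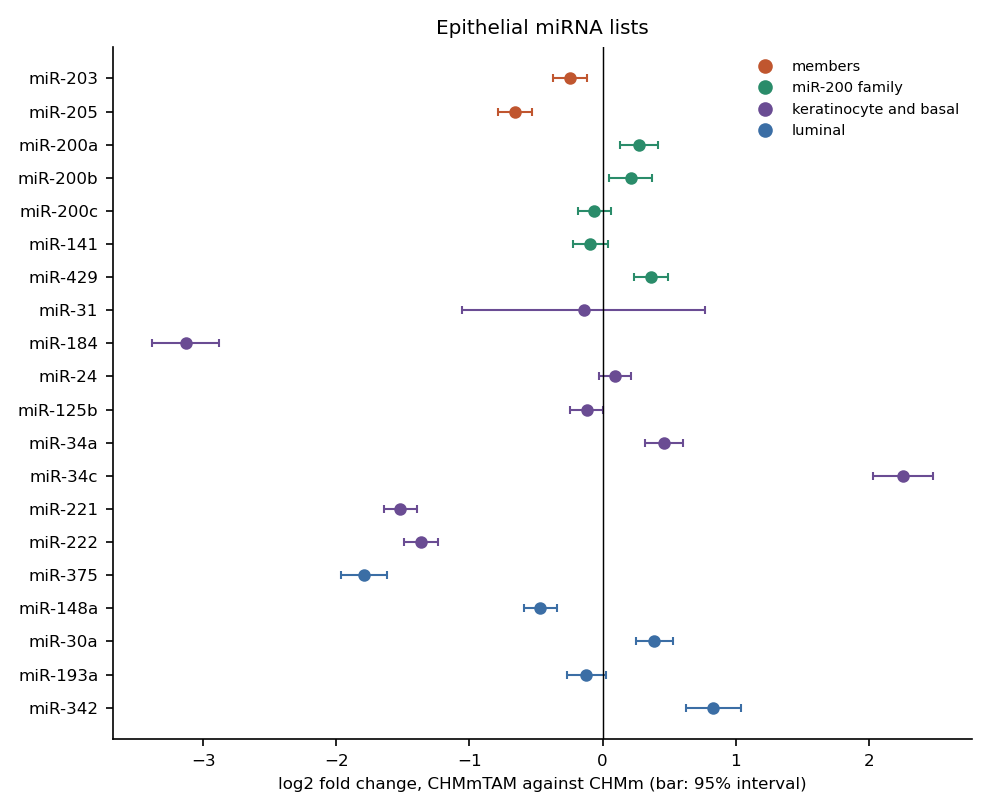
Log2 fold change, CHMmTAM against CHMm, of the members and of the miR-200, keratinocyte and basal, and luminal lists. Points are the edgeR estimates with TMM and bars their 95% intervals. miR-205 (-0.66) and miR-203 (-0.24) lie to the left of 0, whereas the miR-200 family lies between -0.09 and 0.36, where miR-200b turns negative under upper-quartile scaling and miR-200c positive without miR-21 in the totals. The wide bar of miR-31 rests on at most 13 counts in a library.

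The miRNAs whose profile over the 6 libraries was most like that of each member were sought among the 116 others with a mean of at least 50 CPM. Likeness was the root mean square difference of log2 CPM after centring each miRNA on its own mean. For miR-205 the nearest were miR-874 at 0.055, miR-155 at 0.061 and miR-532 at 0.090. Their log2 fold changes were -0.56, -0.73 and -0.54, close to the -0.66 of miR-205. For miR-203 the nearest were miR-196b at 0.059, miR-1306 at 0.060 and miR-27b at 0.061, with log2 fold changes of -0.29, -0.15 and -0.14. Of these, miR-1306 and miR-27b did not pass an FDR of 0.05 with TMM. Both passed it as lower with RLE (-0.21 and -0.20), upper-quartile scaling (-0.39 and -0.38) and TMM without the 10 most abundant miRNAs (-0.21 and -0.20), and miR-27b also in other fits. With 6 libraries in 2 groups, such likeness cannot be told apart from a similar difference between the lines.

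Direction and call of both members held in each of the 18 other fits. Across the 6 scalings tried, TMM included, the log2 fold change of miR-205 ranged from -0.90 to -0.56 and that of miR-203 from -0.49 to -0.15. The median of all miRNAs moved with the scaling, from -0.18 under upper-quartile scaling to 0.15 when miR-21 was left out of the totals. A change of scaling shifts all miRNAs nearly alike, so the distance from that median, -0.72 for miR-205 and -0.30 for miR-203 with TMM, is fixed by construction and says nothing of stability. The value of miR-203 moved more in proportion to its size. The highest FDR of miR-203 over all fits, 0.04 by edgeR's quasi-likelihood method, came from leaving miR-21 out of the totals. For miR-205 the highest was 5.94e-07 by the same method, from leaving out CHMm replicate 1.

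**Figure D5:**
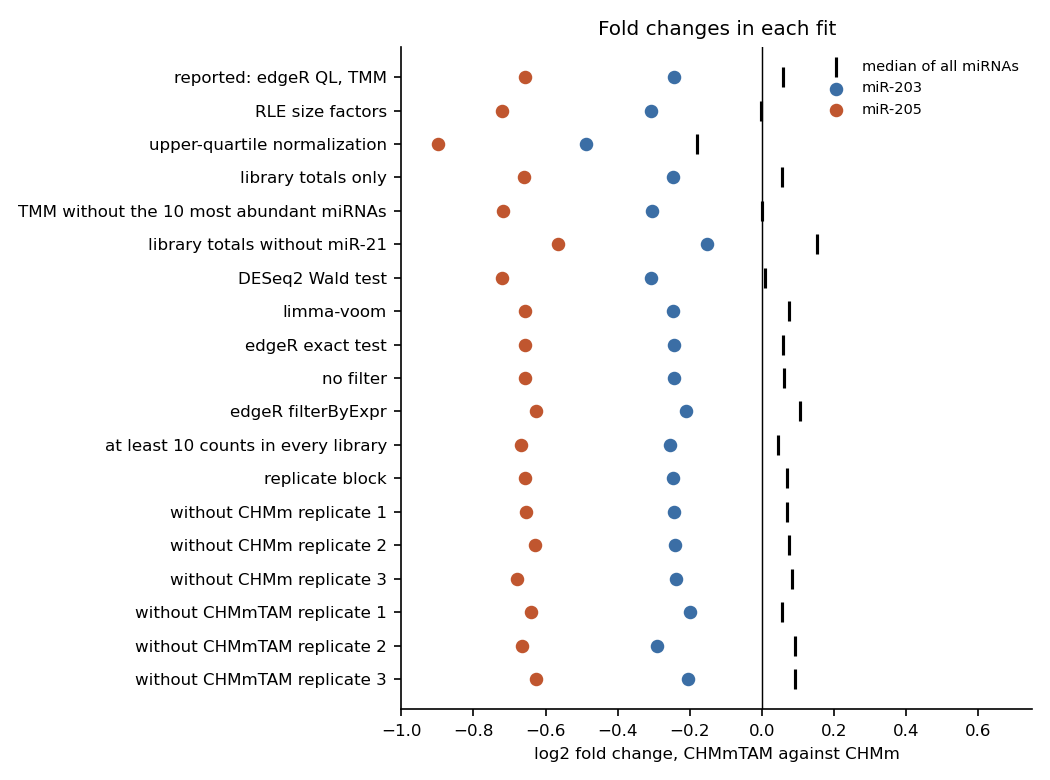
Log2 fold change of miR-205 and miR-203, CHMmTAM against CHMm, in the reported fit and in 18 alternatives, with the median of all tested miRNAs as a vertical tick. Both members lie below 0 and below the median in each fit. miR-205 runs from -0.90 to -0.56 and miR-203 from -0.49 to -0.15, and both move with the median when the scaling changes.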

How the data were processed

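Total RNA was extracted with Trizol, miRNA was purified, and libraries were sequenced on a HiSeq instrument. The authors deposited raw read counts per canine miRNA, 1 column per library, without normalization. The submitters' processing notes name HISAT2 2.0.4, BWA and CanFam3.1 without roles. The miRNA database, trimming and how reads of several possible origins were counted are not given in the sources used here, and could move counts between similar miRNAs. The names of both members carry no precursor arm. The 6 RNA-seq libraries were not analysed here.

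Libraries were assigned to lines and replicate numbers by their titles. No pair of replicates agreed within sampling noise (chi-square over its degrees of freedom was at least 26.3). At these depths 3 counts correspond to 0.24 to 0.399 CPM. The 95% Wilson intervals cover counting error only. miRNAs with at least 10 counts in total were kept (284 of 453) and compared by the quasi-likelihood test of edgeR 4.0.16 in R 4.3.3 with TMM factors. P-values were adjusted by Benjamini-Hochberg (FDR). The biological coefficient of variation was 6.04%. Standard errors came from the coefficient and its F statistic, and intervals are 1.96 standard errors to either side. Ratios were compared by exact permutation in SciPy 1.17.1 under Python 3.11.15. The fit was also run on simulated counts with a single dispersion for all miRNAs, a check of the code that does not bear on the calls made here.

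Alternatives were other scalings, filters, the exact test of edgeR, DESeq2 1.42.0, voom in limma 3.58.1, a replicate block and each library left out in turn. Totals without miR-21 were added after seeing the data. Named miRNAs are the members, the miRNAs of the lists, the 3 most alike to each member and the 2 on either side of it in CHMm. Members and lists were chosen with earlier results of these data known. The replicate numbers are those of the titles.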

Additional observations from a re-analysis of the deposited data

How the results depend on the processing

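Both members kept their direction and their call in all 18 alternative fits. Leaving out each library in turn gave log2 fold changes from -0.68 to -0.63 for miR-205 and from -0.29 to -0.20 for miR-203, differences from -0.44 to -0.38 in the log2 ratio of miR-205 to miR-203, 114 to 126 miRNAs past the FDR and 30 to 34 past FDR and fold. Of the calls by FDR, 57.6% were higher in CHMmTAM with TMM (72 higher, 53 lower), against 29.1% under upper-quartile scaling (41 and 100), 46.7% under RLE (64 and 73) and 47.2% with DESeq2 (59 and 66). With the replicate number as a block, miR-205 was at -0.66, miR-203 at -0.25 and the ratio at -0.41. The block changed neither call. Same-numbered libraries had correlated deviations of 0.06, 0.46 and -0.31 over 117 miRNAs, and apart from replicate 2 none correlated best with its own number, so the numbers are not taken as pairs.

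For the other miRNAs and ratios under the alternatives, 733 values kept direction and call, 16 lost the call, 29 gained it and 16 turned sign. Under upper-quartile scaling miR-200b turned to -0.032, miR-24 to -0.15, miR-181d to -0.17, miR-191 to -0.052, miR-25 to -0.16 and miR-92a to -0.24. miR-92a, near 0 throughout, was also at -0.058 under RLE and with DESeq2, at -0.056 without the 10 most abundant miRNAs, at -0.0058 with at least 10 counts in every library, and between -0.023 and 0.040 with a library left out. miR-200c was at 0.031 without miR-21 in the totals. miR-145, with at most 5 counts, was at 0.052 with the block and between -0.92 and 0.44 with a library left out. Depth does not limit the members, which had at least 14146 counts in each library, and 3 libraries per line limit the exact tests to p = 0.1.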
